A study of Homo sapiens with 54 samples.

Results

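The genes described here are the replication-dependent histone genes, the clustered genes from which dividing cells make the bulk of their histones. They were taken as all genes whose symbol follows the cluster names HIST1 to HIST4 with a histone type and a letter, and that reached at least 1 TPM (the share of a library's transcripts, corrected for gene length) in at least 3 libraries. Of 25435 genes in the table, 67 had such a symbol and 64 of these reached the level. The 3 left out for low values were HIST1H2AA, HIST1H2BA and HIST1H4G. The 64 comprised 6 genes of the linker histone H1, 13 of H2A, 19 of H2B, 13 of H3 and 13 of H4. An annotated coding transcript (GENCODE v29) was found for 62 of the 64, and for 17 of the 19 H2B members. By cluster, 52 belonged to HIST1, 11 to HIST2 and 1 to HIST3. HIST2H3A and HIST2H3C had equal values in every library, as did HIST2H4A and HIST2H4B, so each of these pairs is 1 measurement, and other near-identical copies may have shared reads in ways that cannot be told apart.

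Core histones H2A, H2B, H3 and H4 form the protein spool on which DNA is wound, and H1 binds where the DNA enters and leaves it. Most genes of these clusters are transcribed in S phase, when DNA is copied, under the coactivator NPAT and CASP8AP2 (FLASH). Their mRNAs mostly end in a conserved stem-loop bound by SLBP in place of a poly(A) tail, and they are degraded quickly when DNA synthesis stops.

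The samples were 6 lines of high-grade serous ovarian carcinoma in 3 pairs, each pair from 1 patient: PEA1 and PEA2, PEO1 and PEO4, and PEO14 and PEO23, with the line labelled sensitive to platinum first and the resistant one second. Each line was measured untreated, after 8 h and after 24 h with carboplatin at 80 µM, which damages DNA by platinating its bases, with 3 replicates per group and 54 libraries in all. Each line is a single culture lineage, so differences within a pair are between 2 lines and not between resistance classes. Total RNA was sequenced, which does not require a poly(A) tail.

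In 12 libraries fewer than 12000 genes were listed above 0 (2678 to 11754), and these were set aside for the tests. The other 42, called kept here, listed 12877 to 17133 genes. Untreated PEO23 kept no library, and 1 each was kept of PEO14 at 24 h, PEO4 at 24 h and untreated PEA1, whose spread was taken from the other groups by the fit. Of 12 ovarian epithelial markers, 7 to 12 per line had a median of at least 1 TPM. Of 6 fibroblast markers 0 to 3 did, of 6 leukocyte markers 1 or 2, and of 4 endothelial markers 0 or 1. Summed endothelial markers came to 128 to 259 TPM in PEA2 and at most 31.0 in any other line. In bulk RNA, fewer cells transcribing a gene and less of its RNA per cell cannot be told apart.

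The sequences upstream of 5 members show what the promoters of these genes share. They are the 150 bases before the annotated start of the member with the largest called fall in each histone type among those with a promoter entry, from RefSeq on build GRCh38.p14, all on the minus strand of chromosome 6. Capitals mark the TATA box (letters TATAA), the CCAAT box, the octamer (letters ATTTGCAT) and the H1 box (letters AAACACA), each searched on either strand.
HIST1H1D (chr6:26234988-26235137): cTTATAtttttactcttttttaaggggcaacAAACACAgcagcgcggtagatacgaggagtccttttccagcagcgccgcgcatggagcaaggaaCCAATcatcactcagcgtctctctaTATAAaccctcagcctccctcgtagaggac
HIST1H2AB (chr6:26033619-26033768): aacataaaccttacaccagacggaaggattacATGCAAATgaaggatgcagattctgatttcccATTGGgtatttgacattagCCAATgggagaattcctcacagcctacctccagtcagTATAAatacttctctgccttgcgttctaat
HIST1H2BB (chr6:26043714-26043863): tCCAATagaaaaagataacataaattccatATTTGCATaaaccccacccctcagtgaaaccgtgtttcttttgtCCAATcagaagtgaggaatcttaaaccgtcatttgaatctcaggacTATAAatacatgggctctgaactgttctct
HIST1H3G (chr6:26271414-26271563): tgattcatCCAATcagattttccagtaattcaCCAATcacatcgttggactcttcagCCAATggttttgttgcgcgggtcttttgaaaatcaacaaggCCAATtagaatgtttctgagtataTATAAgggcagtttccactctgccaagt
HIST1H4B (chr6:26027284-26027433): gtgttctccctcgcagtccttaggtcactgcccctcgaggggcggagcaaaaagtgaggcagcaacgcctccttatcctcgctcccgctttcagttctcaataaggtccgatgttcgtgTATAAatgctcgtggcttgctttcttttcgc

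Of the 64 members 52 had a promoter entry, 42 on chromosome 6 and 10 on chromosome 1, each spanning 250 bases before to 50 after the start. TATAA on either strand lay in 48 of the 52 (92.3%), against 21.1% of 27305 promoters of the same length. CCAAT lay in every H1, H2A, H2B and H3 promoter but in 3 of 11 H4 promoters (27.3%), against 35.7% of all. The octamer, the motif read by the factor OCT1, was held by 10 of 12 H2A and 8 of 12 H2B promoters, by 1 of 11 H3 promoters and by no H1 or H4 promoter, against 1.8% of all. The H1 box was in 6 of 6 H1 promoters and in 5.76% of all. These are matches of letters and were not read as binding.

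The histone stem-loop, searched on the transcript strand by its 16 letters with the variable bases left free, was found in the annotated transcripts (GENCODE v29, GRCh38) of 27 of the 64 members and of 0.449% of 19607 other coding genes. It came in 5 versions, shown here with flanking bases and with the stem-loop in capitals, because it is the feature that ties these mRNAs to SLBP.
HIST1H2BL: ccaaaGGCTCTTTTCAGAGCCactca
HIST1H4B: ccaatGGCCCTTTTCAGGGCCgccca
HIST1H3G: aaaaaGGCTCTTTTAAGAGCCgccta
HIST2H4A: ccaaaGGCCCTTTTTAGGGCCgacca
HIST1H2AG: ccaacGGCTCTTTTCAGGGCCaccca
The first version was found in 14 members, the second in 4, the third in 4, that of HIST2H4A in 3 and that of HIST1H2AG in 2. The versions shown for HIST1H4B and HIST2H4A were found in H4 genes, and the others in H2A, H2B and H3 genes. The median log2 change from 8 h to 24 h was -1.02 over the members with these letters in a transcript and -0.97 over those without, and 20 and 23 members were called lower, so the 2 sets are given side by side only. Many annotated transcripts are short, with a median longest coding transcript of 393 bases for H2A and 411 for H3. They may end before the stem-loop, so a gene without a match need not lack it. The 2 sets are therefore not 2 kinds of gene.

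At 24 h of carboplatin the histone genes took a smaller share of the transcripts than at 8 h in each of the 6 lines. In PEA1 the 64 genes made up 5.11, 4.19 and 4.34% of all TPM at 8 h and 3.46, 2.09 and 3.29% at 24 h. In its partner PEA2 the kept libraries held 6.53 and 5.39% at 8 h and 4.25, 3.95 and 4.52% at 24 h. PEO1 went from 6.64 and 5.43% to 5.22, 4.79 and 5.13%, the narrowest gap of the 6 lines. In PEO4, the line with the largest share, the values were 7.93 and 8.26% at 8 h and 5.30% at 24 h. PEO14, the line with the smallest share, held 2.52, 2.33 and 2.30% at 8 h and 0.991% at 24 h. PEO23 held 3.44, 2.77 and 4.14% at 8 h and 1.98, 1.57 and 1.73% at 24 h. In no line did the 2 times overlap, and with the 12 set-aside libraries included every 24 h library of a line still lay below every 8 h library of that line. On the rescaled sums, the scale of the tests below, the times did not overlap in 5 lines and overlapped in PEO23, where the 24 h library was lower in each of 3 pairs of cultures that share a passage. On the deposited shares the ratio of medians, 24 h to 8 h, ran from 0.425 in PEO14, with 1 library at 24 h, to 0.85 in PEO1. On the rescaled sums PEO1 fell by the larger factor of these 2 lines. Its median went from 145186 to 46676, and that of PEO14 from 24633 to 17126.

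**Figure D1:**
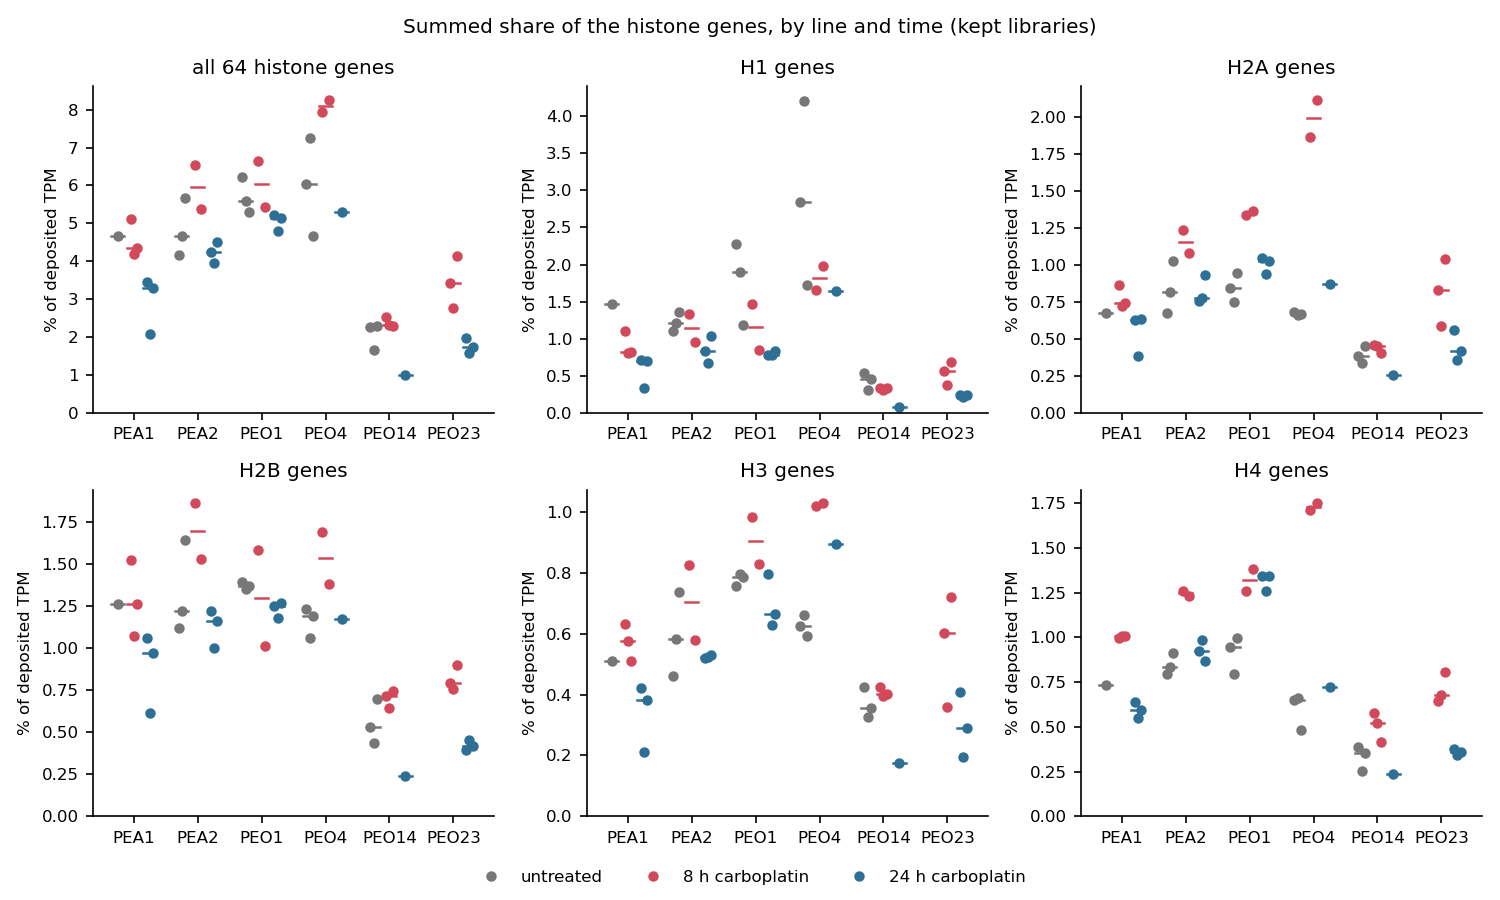
Share of the deposited TPM (%, vertical axis) taken by all 64 histone genes and by each histone type, in each kept library of the 6 lines, untreated (grey), at 8 h (red) and at 24 h (blue) of carboplatin. Points are libraries and bars are group medians; for all 64 genes the 24 h points lie below the 8 h points in every line.

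By histone type the separation of the 2 times differed between lines. The summed H2A share had all kept 24 h libraries below all 8 h libraries in 6 of 6 lines, and H1, H2B, H3 and H4 each in 5. On the rescaled sums the counts were 3 lines for H2A, 3 for H1, 4 for H2B, 5 for H3 and 4 for H4. The exceptions on the deposited values were H1 in PEA2, H2B and H4 in PEO1, and H3 in PEO23. With all 54 libraries the lines without overlap were 4 for H1, 4 for H2A, 5 for H2B, 3 for H3 and 4 for H4. The H4 genes in PEO1 held 1.26 and 1.38% at 8 h and 1.26 to 1.34% at 24 h, a ratio of medians of 1.02. The lowest H4 ratio was in PEO4, where the median went from 1.73% to 0.723%, and the lowest H1 ratio was in PEO14, where it went from 0.331% to 0.079%.

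Gene by gene, changes were tested with limma on log2(rescaled TPM + 1), where low genes show too small a change, after scaling the libraries to each other over 8287 genes. A gene was called at an adjusted p under 0.05 over all 18013 genes tested, which included all 64 members. Averaged over the 6 lines with equal weight, 43 of 64 members were lower at 24 h than at 8 h and none was higher, against 1.04% of all genes lower and 0.5% higher. Members made up 23.0% of all genes called lower. The log2 change was below zero for 63 of 64, in all 6 lines for 38, and its median was -1.01, against 0.00 over all genes. With the deposited TPM left unscaled the count was 34 and the median -0.72 while all genes stood at 0.16, so relative to all genes the median was -0.87. In the model of all 54 libraries no member passed (44 had an unadjusted p under 0.05, in limma). With 4 lines that kept at least 2 libraries at both times 16 did. The share of all genes at that unadjusted level is not given, here or below, so such counts are description only.

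Among the linker histones, 5 of 6 fell, with a median log2 change of -1.10. HIST1H1D fell by 1.61 ± 0.22 on the log2 scale (SE, adjusted p = 0.00018). Its rescaled TPM in PEA1 was 307, 263 and 206 at 8 h and 124, 42.6 and 128 at 24 h. In PEA2 it was 1050 and 701, then 446, 365 and 483. In PEO1 it was 2770 and 4600, then 1310, 1180 and 1170. In these 3 lines the 2 times did not overlap. In PEO4 the values were 3470 and 6680 at 8 h and 2010 at 24 h. In PEO14 they were 205, 167 and 146, then 28.9, and this was the single member called in that line alone (-2.52 ± 0.62, adjusted p = 0.0269). In PEO23 they were 674, 283 and 1070, then 332, 86.9 and 169, where the lowest 8 h library lay below the highest 24 h library, although 24 h was lower in 3 of 3 pairs of the same passage. HIST1H1B, HIST1H1C and HIST1H1E, the more abundant linker histones, fell by 1.29, 1.02 and 0.97. HIST1H1T, known as a testis H1, averaged only 4.11 rescaled TPM in treated libraries. HIST1H1A had a change of -0.59 and an adjusted p of 0.151.

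**Figure D2:**
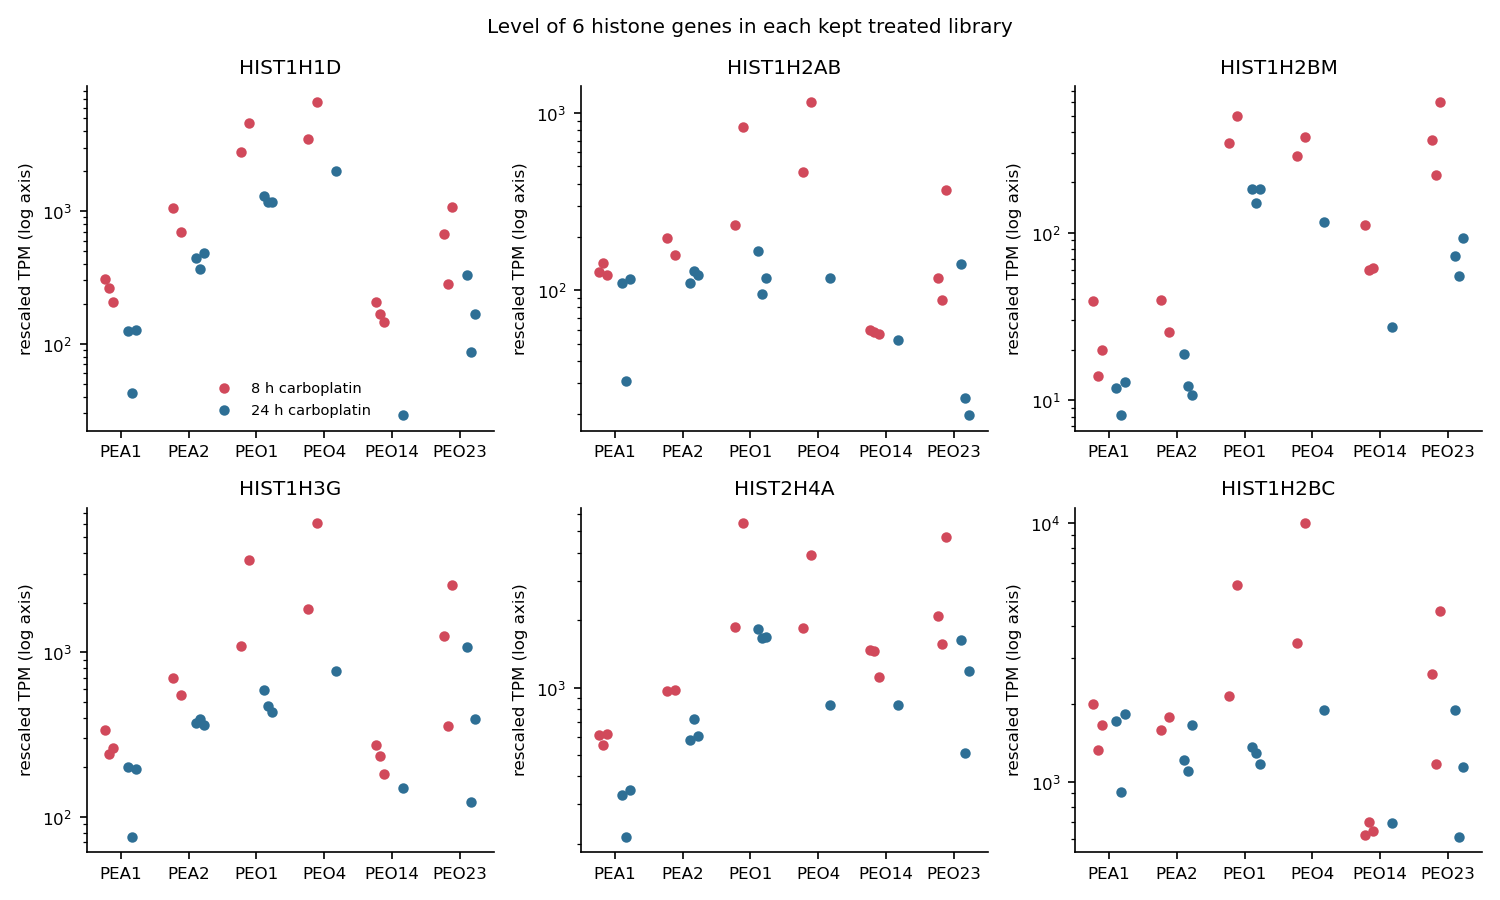
Rescaled TPM (log axis) of 6 histone genes in every kept library at 8 h (red) and 24 h (blue) of carboplatin, by line. HIST1H2BM is lower at 24 h in each line without overlap and HIST1H1D in each line but PEO23, whereas HIST1H2BC, which was not called, overlaps between the times in PEA1, PEA2, PEO14 and PEO23.

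Of the 13 H2A genes 10 fell, with a median of -1.04. HIST1H2AB had the largest change, -1.32 ± 0.29 (adjusted p = 0.0149). It measured 466 and 1160 rescaled TPM at 8 h and 118 at 24 h in PEO4, and 233 and 836 against 166, 95.2 and 117 in PEO1. In PEO14 it went from 59.4, 58.2 and 56.7 to 52.5. In PEO23 it measured 118, 88.0 and 367 at 8 h and 141, 24.5 and 19.7 at 24 h, with overlap. There 24 h was lower in 2 of 3 pairs of the same passage on the rescaled values. The most abundant H2A gene, HIST2H2AC, fell by 0.90 (adjusted p = 0.0305), and HIST1H2AI and HIST1H2AG, the next, by 1.01 and 1.14. HIST1H2AD, HIST1H2AK and HIST2H2AB were not called, at -1.03, -1.04 and -0.66.

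H2B was the type with the most called members, 15 of 19. HIST1H2BM fell by 1.43 ± 0.19 (adjusted p = 0.000148). In PEO23 it measured 357, 222 and 605 rescaled TPM at 8 h and 72.8, 55.0 and 93.5 at 24 h. In PEA1, where it is scarce, it measured 39.0, 13.9 and 19.9, then 11.8, 8.14 and 12.9. In PEO1 it measured 345 and 494, then 183, 151 and 182. In these 3 lines the 2 times did not overlap. HIST1H2BB fell by 1.67 ± 0.29 (adjusted p = 0.00191), but PEA1 listed it at 0 in all 3 libraries at 8 h. PEA2 was near the floor as well, at 6.51 and 6.4 rescaled TPM at 8 h and 0, 2.82 and 0 at 24 h. Both lines enter the mean with the same weight as the others. In PEO4 HIST1H2BB went from 1040 and 2330 to 148. HIST1H2BJ fell by 1.35, HIST1H2BG by 1.17 and HIST1H2BL by 1.11. HIST1H2BD, among the most abundant, fell by 0.75 ± 0.14 (adjusted p = 0.00419). HIST1H2BC, also abundant, missed the threshold at -0.79 ± 0.22 (adjusted p = 0.0555). HIST2H2BC was the single member above zero, at 0.08 ± 0.42. It averaged 11.9 rescaled TPM in treated libraries.

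H3 and H4 had fewer calls with changes of similar size. Of 13 H3 genes 6 fell, with a median of -0.91, and of 13 H4 genes 7 fell, with a median of -1.01. HIST1H3G fell by 1.31 ± 0.31 (adjusted p = 0.0264). It measured 339, 241 and 261 rescaled TPM at 8 h and 201, 75.7 and 195 at 24 h in PEA1, with no overlap. In PEO23 it measured 1260, 358 and 2570, then 1080, 123 and 392, with overlap between the groups but a lower 24 h value in 3 of 3 pairs of the same passage. The shared measurement of HIST2H3A and HIST2H3C was not called, at -0.74 ± 0.26 (adjusted p = 0.16). HIST2H4A, which cannot be told apart from HIST2H4B, fell by 1.03 ± 0.20 (adjusted p = 0.00544). It went from 615, 554 and 618 to 332, 215 and 349 in PEA1, and from 966 and 974 to 581, 725 and 609 in PEA2. HIST1H4K had the largest mean change of all members, -1.68 ± 0.59, yet was not called (adjusted p = 0.148). It was listed at 0 in 1 of 3 PEA1 libraries at 24 h, beside 371 and 274. HIST1H4C, the most abundant H4 gene, was not called either, at -0.87 ± 0.26 (adjusted p = 0.0863).

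**Figure D3:**
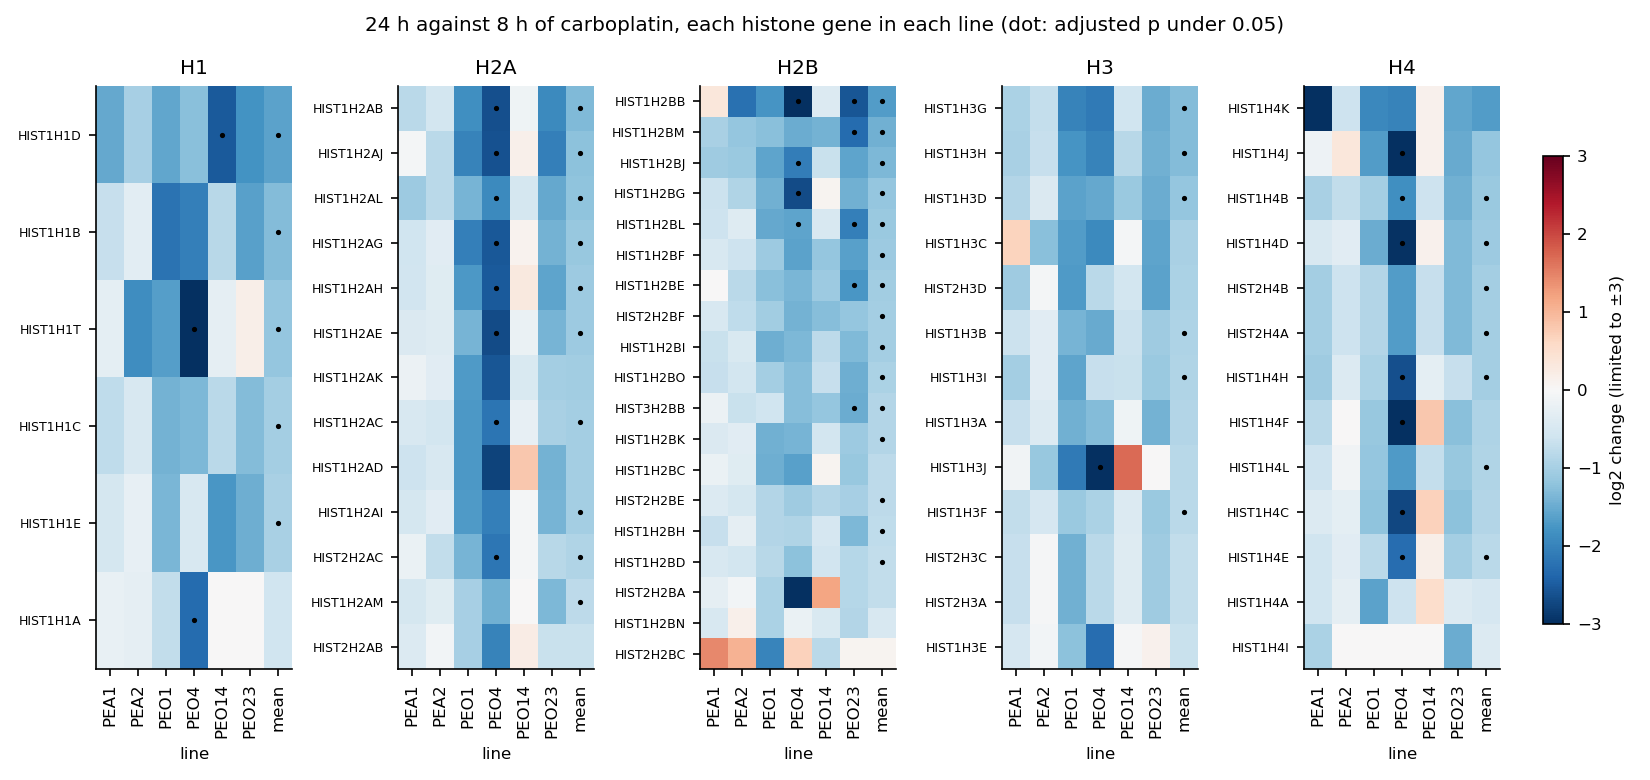
Log2 change from 8 h to 24 h of carboplatin for each of the 64 histone genes (rows, ordered by mean change within a type) in each line and in the mean of the 6 lines (columns). Blue is lower at 24 h and red is higher, colours are limited to 3 in either direction, and dots mark an adjusted p under 0.05; 43 genes carry a dot in the mean column.

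Within single lines the test had less reach. In PEA1, PEA2 and PEO1 no member was called in limma, though 10, 5 and 52 members had an unadjusted p under 0.05. The share of all genes at that unadjusted level is not given, so these counts are description only. Of all genes 0.00555%, 0.0% and 0.122% were called lower in these lines and 0.0222%, 0.0% and 0.0944% higher, and the member medians were -0.60, -0.41 and -1.43. Leaving out replicate 1 of PEO1 at 8 h gave 20 calls.

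PEO4 gave 22 members lower and none higher, against 6.42% of all genes lower and 7.66% higher, with a median of -1.77. They were 8 H2A, 7 H4, 4 H2B, 2 H1 and 1 H3 gene. HIST1H4J went from 2650 and 7690 rescaled TPM to 250, a fall of 4.17 ± 1.03 on the log2 scale (adjusted p = 0.0101). HIST1H2BB fell by 3.39, HIST1H3J by 3.37 and HIST1H4F by 3.17. The PEO4 calls rest on 1 library at 24 h and 2 at 8 h, of which replicate 2 needed a scale factor of 0.264. Without that library 1 member was called and without the other 8 h library 39. With the spread estimated from the compared groups alone, 0 members were called in PEO4 or PEO23 in limma (3 and 12 at an unadjusted p under 0.05), and with all 54 libraries 0 were (7 and 3).

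PEO23 gave 5 members lower and none higher, against 0.316% of all genes lower and 0.0777% higher, with a median of -1.34, and all 5 were H2B genes: HIST1H2BB (-2.56), HIST1H2BM (-2.32), HIST1H2BL (-2.06), HIST1H2BE (-1.75) and HIST3H2BB (-1.48). The count was 2 or 3 without any 1 of 4 libraries, 30 without replicate 2 at 8 h and 21 without replicate 1 at 24 h, and 2 with the replicate block described in the processing notes. PEO14 gave 1 lower, HIST1H1D, and none higher, against 2.0% of all genes lower and 0.538% higher, with a median of -0.41. That call was lost without replicate 3 at 8 h and with the replicate block, each leaving 0.

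Counted by overlap instead, on the deposited TPM, all 24 h libraries lay below all 8 h libraries for 40 of 64 members in PEA1 (4.57% of all genes), 40 in PEA2 (11.1%), 23 in PEO1 (1.29%), 45 in PEO4 (11.6%), 56 in PEO14 (48.1%) and 44 in PEO23 (0.994%). In PEO14 the share was high for all genes too, with 1 library at 24 h. Members with all 24 h libraries above were 0 in PEA1 (4.67% of all genes), 1 in PEA2 (6.17%), 3 in PEO1 (46.3%), 9 in PEO4 (52.9%), 1 in PEO14 (12.3%) and 0 in PEO23 (2.75%). On the rescaled values the counts below were 27, 39, 60, 61, 35 and 11 of 64, against 4.69%, 8.96%, 17%, 28.5%, 27.9% and 3.68% of all genes. The rescaled counts above were 0, 1, 0, 0, 5 and 0, against 5.17%, 8.09%, 18.1%, 35.9%, 31.5% and 2.75% of all genes.

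The difference between the 2 lines of a pair in the 24 h against 8 h change was tested directly, and no member passed in any pair in limma. Counts at an unadjusted p follow without the share of all genes at that level. The shares given are of adjusted calls, so the unadjusted counts are description only. With an unadjusted p under 0.05 there were 2 members for PEA2 against PEA1, 2 for PEO4 against PEO1 and 10 for PEO23 against PEO14. Of all genes 0.0%, 0.405% and 0.122% passed as higher and 0.00555%, 0.416% and 0.0167% as lower.

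Short transcripts other than histones moved with these comparisons, and their part in the histone changes was not tested. Over 92 coding genes with a longest coding transcript of at most 800 bases, 15 of them ribosomal protein genes, the median change from 8 h to 24 h was -1.03 in PEO1 and -1.21 in PEO4, close to the histone genes. In PEA1 and PEA2 it was 0.13 and 0.07, in PEO23 -0.26 and in PEO14 above zero. In the mean of the lines it was -0.23, and none of the 92 was called, nor was any of the 78 ribosomal protein genes tested (median -0.29). When the libraries were scaled over these 92 genes, a setting added after the values were seen, 35 members were called lower in the mean and none higher, and the median was -0.73 with all genes at 0.14. In PEO1 that scaling took the member median from -1.43 to -0.30 while all genes moved to 0.56, in PEO4 it took it to -0.44 with all genes at 0.63 and 5 members lower, and in PEO14 to -1.31 with all genes at -0.42 and 21 lower. The RNAs RMRP and RPPH1 alone had median shares of 10.9% in untreated, 21.1% in 8 h and 15.7% in 24 h libraries. The median of the members was below zero in all 6 lines under the 3 scalings.

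**Figure D4:**
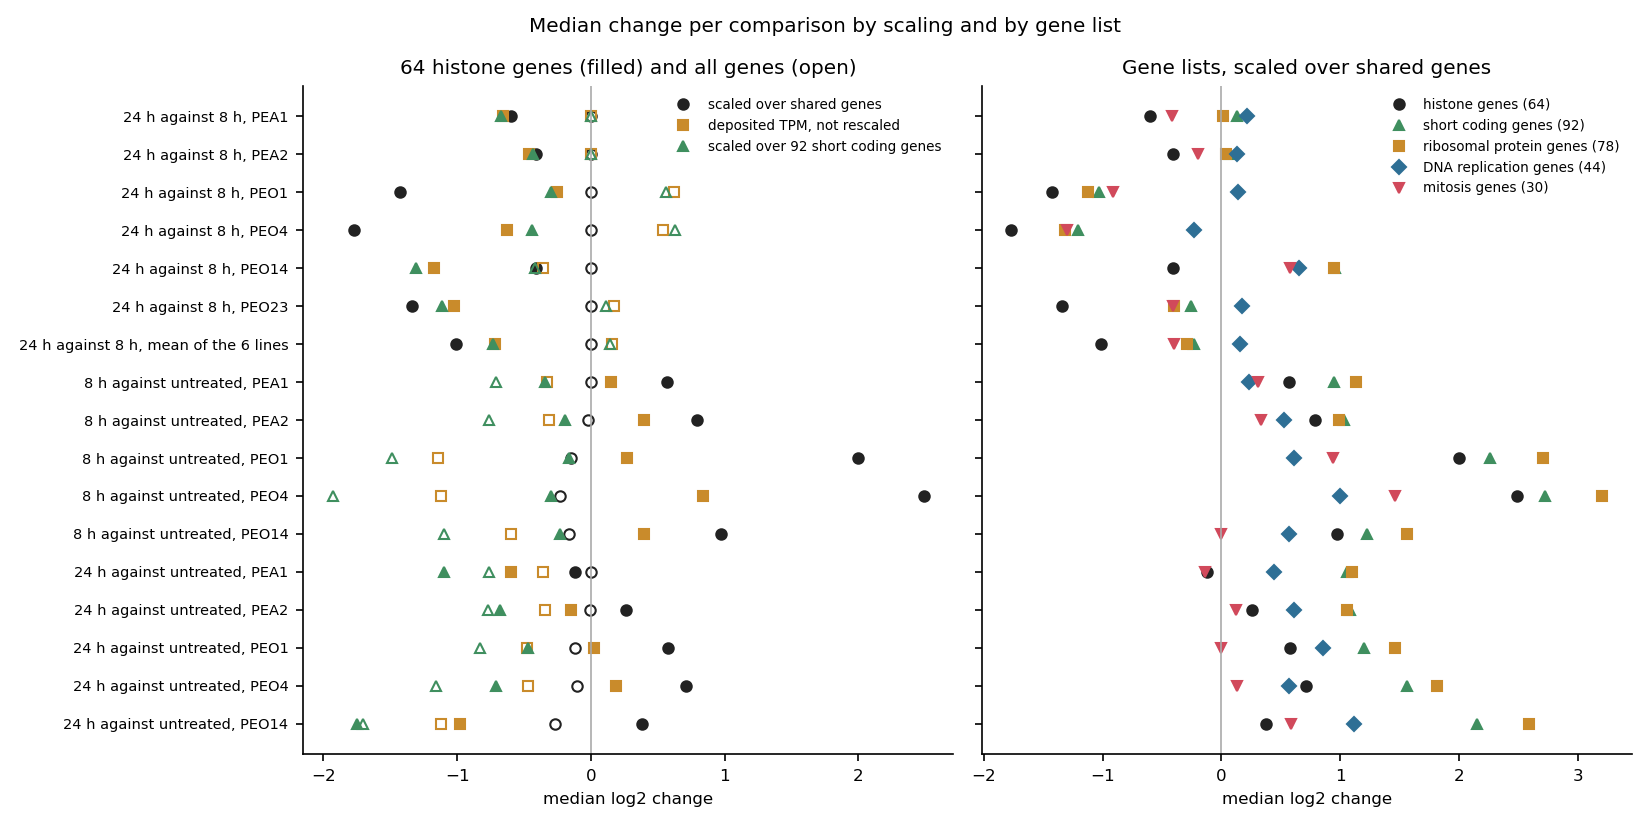
Left, median log2 change of the 64 histone genes (filled) and of all genes (open) in each comparison with libraries scaled over 8287 shared genes, not rescaled, or scaled over 92 short coding genes. Right, medians of 5 gene lists with scaling over 8287 genes. From 8 h to 24 h the histone median is below zero and below that of all genes under each scaling, while against untreated cells its sign depends on the scaling.

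Against untreated cells the median histone gene was higher at 8 h on the main scale. The sign of that median turned with the scaling, while its position above the median of all genes did not. The comparison was possible in 5 lines. In PEO1 and PEO4, 55 of 64 members each were higher and none lower, against 17.5% and 21.6% of all genes higher and 24.5% and 32.0% lower, with medians of 2.0 and 2.49. PEA2 had 5 higher and none lower (3.54% and 10.8% of all genes) with a median of 0.79, PEO14 had 18 higher and 1 lower (8.92% and 21.2%) with 0.97, and PEA1 had none higher and 1 lower (0.6% and 5.3%) with 0.57. With scaling over the 92 short coding genes the medians became -0.34 (PEA1), -0.19 (PEA2), -0.16 (PEO1), -0.30 (PEO4) and -0.23 (PEO14), and all genes stood at -0.71 to -1.93. Relative to all genes the member medians were then 0.37, 0.56, 1.33, 1.63 and 0.87, all above zero. Under that scaling 3, 0, 11, 21 and 11 members were lower and 0, 2, 5, 13 and 3 higher, against 15.2%, 28.9%, 56.6%, 62.6% and 50.3% of all genes lower and 0.0833%, 0.328%, 1.28%, 2.68% and 0.427% higher. Short coding genes themselves had medians of 0.95 to 2.73 on the main scale, and ribosomal protein genes took 7.20 to 14.1% of TPM in untreated and 17.5 to 23.5% in 8 h libraries. Whether histone mRNA rose per cell cannot be told from these values. The count in PEO1 was 17 without replicate 2 at 8 h, that in PEO14 was 12 without replicate 1 at 8 h, and that in PEA2 was 0 to 2 without any 1 of 4 libraries (untreated replicates 1 and 2, and both at 8 h).

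HIST1H2BD, HIST1H4B and HIST1H4H were called higher at 8 h in 4 of the 5 lines on the main scale, and 20 of 64 members in at least 3, against 7.41% of all genes in at least 3 and 2.29% in at least 4. HIST1H2BD rose by 0.97 ± 0.32 in PEA2 (adjusted p = 0.0412) and by 1.36 ± 0.29 in PEO14 (adjusted p = 0.000599). The call in PEA1 was HIST1H2BE, a gene with 7.81 rescaled TPM in the 1 kept untreated library and listed at 0 in all 6 treated ones. The lower call in PEO14 was HIST1H1T, at 2.75 to 5.78 rescaled TPM untreated and at 0.722, 0 and 0 at 8 h.

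The linker histones had lower changes than the core histones in these comparisons. Their median was the lowest of the 5 types in 10 of 10 comparisons of 8 h or 24 h with untreated cells, and in 10 of 10 as well with no rescaling and with scaling over short genes. At 8 h the H1 median was -0.14 in PEA1, 0.42 in PEA2, 1.08 in PEO1, 1.43 in PEO4 and 0.04 in PEO14. The next lowest type stood at 0.37, 0.74, 1.49, 1.82 and 0.76. HIST1H1E, the most abundant H1 gene of untreated cells, measured 10600, 22000 and 6500 rescaled TPM in untreated PEO4 and 7240 and 18100 at 8 h, with a change of 0.00. HIST1H1B measured 3320, 4520 and 2480 in untreated PEO4 and 9230 and 36700 at 8 h. On the main scale 4 of the 6 H1 genes were called higher at 8 h in PEO4 and 3 in PEO1. Of all genes 21.6% and 17.5% were called higher there. As a share of TPM the H1 genes held 1.73 to 4.20% in untreated PEO4 and 1.65 and 1.98% at 8 h, while H2A went from 0.661 to 0.684% up to 1.87 and 2.12%. The annotated coding transcripts of H1 genes had a median of 674 bases, against 393 for H2A, 950 for H2B, 411 for H3 and 435 for H4. The 5 lines' comparisons at the 2 times share their untreated libraries.

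At 24 h against untreated cells, on the main scale, PEO1 had 13 higher and 0 lower (15.7% and 22.9% of all genes), PEO4 5 and 0 (7.26% and 12.7%), PEO14 8 and 3 (13.5% and 22.7%), PEA2 1 and 0 (4.77% and 12.5%) and PEA1 0 and 1 (0.788% and 5.23%). The medians were 0.58, 0.71, 0.38, 0.26 and -0.12. The share of members called higher was near or below that of all genes in PEO4, PEO14, PEA2 and PEA1, and somewhat above it in PEO1. Whether these shares differ was not tested, so the types and genes named next are description only. Of the 13 in PEO1, 7 were H4 genes, including HIST1H4C (2.04 ± 0.53, adjusted p = 0.00277), and 5 were H2A genes. The 3 lower in PEO14 were the H1 genes HIST1H1D (-2.45), HIST1H1E (-1.74) and HIST1H1T, which was listed at 0 in the 24 h library. With scaling over the short genes, members lower were 17 in PEA1, 23 in PEA2, 16 in PEO1, 20 in PEO4 and 41 in PEO14, and 1 was higher, in PEO1. Of all genes 15.8%, 33.4%, 41.6%, 37.1% and 53.9% were lower under that scaling. Relative to all genes the member medians were -0.34, 0.09, 0.36, 0.45 and -0.06, so these counts are no result about the histone genes. On the main scale the PEO1 count was 6 without untreated replicate 2 and 7 without 24 h replicate 1, the PEO4 count 2 or 3 without untreated replicate 1 or 3, the PEO14 count 6 without untreated replicate 1, and the PEA2 count 0 without 24 h replicate 2 and 2 without untreated replicate 2 or 24 h replicate 1.

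Between the lines of a pair at 8 h, PEO23 had 37 members higher than PEO14 and none lower, against 6.83% of all genes higher and 8.01% lower, with a median of 1.38. The 37 were 11 H2B, 10 H2A, 7 H3, 6 H4 and 3 H1 genes. HIST1H2BB stood at 20.8, 17.6 and 15.2 rescaled TPM in PEO14 and 321, 151 and 450 in PEO23 (3.90 ± 0.59, adjusted p = 1.58e-05), without overlap. HIST1H4C stood at 285, 182 and 39.2 against 1950, 1150 and 2460 (3.78 ± 0.53, adjusted p = 5.15e-06). The summed share was 2.30 to 2.52% of TPM in PEO14 and 2.77 to 4.14% in PEO23. The count was 18 with no rescaling, 21 with scaling over short genes and 10 with the replicate block, which here joined different lines by replicate number alone. It was 9 without replicate 3 of PEO23, whose scale factor was 0.350, 22 without its replicate 1 and 16 without replicate 3 of PEO14. With only the 2 compared groups 1 was called, and with all 54 libraries 0 were (9 at an unadjusted p under 0.05 in limma).

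PEA2 had 8 members higher and 1 lower than PEA1 at 8 h (8.98% and 7.18% of all genes), with a median of 0.44, and PEO4 had 1 higher and none lower than PEO1 (4.66% and 5.23%), with a median of 0.55. Several of these were members that 1 line of the pair listed at 0. Of the PEA2 calls, HIST1H1A, HIST3H2BB, HIST1H1D and HIST1H2AL were above 0 in every kept library of both lines. Their log2 changes were 2.67, 2.34, 1.74 and 1.51. HIST1H4F was listed at 0 in all 8 kept PEA2 libraries, treated or not, and measured 115 to 355 rescaled TPM in PEA1. HIST1H2BE was listed at 0 in the 6 treated PEA1 libraries and measured 65.1 and 67.7 in PEA2 at 8 h. HIST1H3J measured 98.4 and 124 in PEA2 at 8 h and 3.96, 0 and 0 in PEA1. HIST1H1A measured 62.4 and 74.8 in PEO4 at 8 h and 1.82 and 0 in PEO1. HIST1H3J and HIST1H1A were listed at 0 in all 6 kept PEO23 libraries. A value of 0 can be a failed estimate in such tables, so no fold is given here for a pair in which 1 line listed the member at 0.

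The genes that serve histone mRNA did not pass in the mean of the lines. Of 28 genes of histone mRNA transcription and processing 0 were called (3 at an unadjusted p under 0.05 in limma), with a median change of -0.01. SLBP, the stem-loop binding protein, changed by 0.03 ± 0.11, the coactivator NPAT by -0.02 ± 0.18 and CASP8AP2 by 0.01 ± 0.12. By line, CASP8AP2 changed by -1.17 in PEO4 and by 0.79 in PEO14, each on 1 kept library at 24 h. In the other lines its change was -0.07 to 0.25. LSM10 and LSM11, of the U7 particle that cuts the 3' end, changed by -0.09 ± 0.38 and -0.20 ± 0.24. ZNF473, another factor of that cleavage, changed by 0.28 ± 0.10 (adjusted p = 0.166), and ERI1, an exonuclease that trims the stem-loop, by 0.15 ± 0.21. The signs of SLBP, NPAT, CASP8AP2, LSM10, LSM11 and ERI1 are not settled, since each turned under at least 1 alternative.

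DNA replication genes did not fall with the histone genes. Of 44 tested, 4 were higher at 24 h than at 8 h in the mean of the lines and none lower, with a median of 0.16, against 0.5% of all genes higher. The 4 were RRM2, a subunit of ribonucleotide reductase (0.58 ± 0.13, adjusted p = 0.0215), TIMELESS, which protects the fork (0.50, adjusted p = 0.0189), FEN1, a flap endonuclease (0.50, adjusted p = 0.0321), and TK1, thymidine kinase (0.47, adjusted p = 0.0357). RRM2 is named by the rule used here, and the other 3 were named after their values were seen. Of 26 histone chaperones 1 was higher, CHAF1B, the middle subunit of CAF-1 (0.69 ± 0.16, adjusted p = 0.02), and its partner CHAF1A was not called at 0.58 (adjusted p = 0.0504). Of 18 G1/S genes 0 were called (8 at an unadjusted p under 0.05 in limma), CDKN1A among them at 0.88 ± 0.31.

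Mitosis genes were lower in the mean of the lines, but not in each line. Of 30 tested, 11 were lower and none higher, against 1.04% of all genes lower, with a median of -0.40, including DLGAP5 (-0.88), HMMR (-0.87), KIF20A (-0.81) and BIRC5 (-0.54). In PEO14 the median of the mitosis genes was 0.58 and BIRC5 changed by 1.37, on 1 kept library at 24 h. With all 54 libraries BIRC5 in PEO14 stood at -0.91. In PEA1 and PEA2 no mitosis gene was called. Of 13 replacement histones, which are made outside S phase, 1 was lower, CENPA, the centromeric H3 (-0.67 ± 0.16, adjusted p = 0.0282). H2AFX was not called at -0.26. H3F3A and H3F3C were listed at 0 in 32 and 28 of 42 kept libraries, and no change is given for them. Of 5 histone genes of the same clusters outside the symbol pattern 0 were called (4 at an unadjusted p under 0.05 in limma), with a median of -0.80. They were HIST3H2A (-1.10, adjusted p = 0.0713), the equal pair HIST2H2AA3 and HIST2H2AA4 (-0.80), HIST4H4 (-0.62) and HIST3H3, which showed the smallest change of the 5 at -0.14.

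The genes whose level followed the median level of the members most closely were again histones. Over the 29 kept treated libraries, with each line's mean removed, Pearson's r was 0.964 for HIST2H2AA3 and HIST2H2AA4, 0.948 for HIST3H2A and 0.894 for HIST4H4. The next was LINC00116 at 0.876. These points share library scale and the composition of the library, so r is a description only.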

How the data were processed

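Total RNA from 54 libraries was sequenced. The authors deposited TPM estimates of 25435 genes that sum to the same total in each library, and the counts behind them are unknown here, so depth and intervals that need it are not given. Build hg19 and bcl2fastq 2.18 are named per the submitters' processing notes. Which aligner, annotation and strand setting the authors used is not given in the sources used here. The labels put untreated cells at time 0, while the series text has vehicle-treated controls collected later and gives the dose in another unit than the labels' 80 µM.

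Kept libraries (at least 12000 genes above 0) were scaled by median ratios over 8287 genes. Genes with at least 1 TPM in at least 3 libraries were tested on log2(rescaled TPM + 1) with limma 3.58.1 in R 4.3.3, with all groups in 1 fit and Benjamini-Hochberg adjustment over 18013 genes. Tested on simulated data for the mean of the 6 lines, 74% of log2 changes of size 1 and 96% of size 2 were recovered, and for the single line PEA1 20% and 80%. Replicates may be technical in part, and p-values cover the spread between these samples only. Counts at an unadjusted p under 0.05 are given without the share of all genes at that level and are description only.

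The labels give 8 h and 24 h cultures of the same number a shared passage in 18 of 18 cases, and untreated and 8 h cultures in 0 of 18. Deviations of same-numbered 8 h and 24 h libraries correlated at -0.247 to 0.411 over 10 pairs. A replicate block was tried as an alternative, beside no rescaling, a pseudocount of 0.1, no filter, only the compared groups, all 54 libraries, and each library left out. Only for 24 h against 8 h did the block join cultures of a shared passage. Against untreated cells, and between the lines of a pair, it joined cultures by replicate number alone. There its counts are no check of pairing. Scaling over short coding genes and the mean of 4 lines were chosen after seeing the data.

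The members and lists were chosen with earlier results of these data known. Named genes were, in each type, the 4 members of highest level, the 12 members called in the most lines, 7 genes of histone mRNA processing, and 4 genes of each other list. Other genes were named after their values were seen.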

Additional observations from a re-analysis of the deposited data

Results flagged for a closer look

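Libraries set aside for few detected genes are outside the tests, and 11 of their summed histone levels lay above the highest sum of that type in any kept untreated library (41973 TPM for H1, 10274 for H2A, 16394 for H2B, 7949 for H3 and 9979 for H4). Of these, 7 were in treated libraries, and kept treated libraries passed the same levels too: of 29, 9 did for H2A, 2 for H2B, 7 for H3, 11 for H4 and 0 for H1. In untreated PEA1 replicate 2 the H1 genes summed to 55032 TPM, 77.0% of it from HIST1H1E. In untreated PEA1 replicate 3 the sums were 22054 TPM for H2B, 10310 for H3 and 13148 for H4. In PEA2 at 8 h replicate 2 they were 12389 TPM for H2A, 10360 for H3 and 13436 for H4. The H3 genes summed to 21715 TPM in PEO1 at 8 h replicate 3, 15362 in PEO4 at 8 h replicate 3, 9677 in PEO4 at 24 h replicate 1 and 16560 in PEO4 at 24 h replicate 3.

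CCND1, cyclin D1 of the G1 phase, differed between the lines of a pair in its change from 8 h to 24 h. The PEO4 change minus the PEO1 change was 1.95 on the log2 scale and passed the test of that difference. The PEO4 side rests on 1 kept library at 24 h, at 259 rescaled TPM, beside 81.9 and 53.5 at 8 h. The value of 53.5 came from replicate 2, whose scale factor was 0.264.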

How the results depend on the processing

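In the mean of the 6 lines, the 24 h against 8 h calls were all lower under each alternative that gave calls. Members called were 43 as reported, 34 with no rescaling, 35 with short-gene scaling, 39 with a pseudocount of 0.1, 41 with no filter, 39 with only the compared groups, 31 with the replicate block, 16 in the mean of 4 lines and 0 with all 54 libraries. Counts below are of members called in either direction, and the cause of each shift was not tested. With the replicate block, only the counts for 24 h against 8 h rest on a shared passage. With all 54 libraries 24 h against 8 h gave 0 in PEO4, PEO14 and PEO23, 8 h against untreated gave 0 in PEA1, PEA2 and PEO14, 3 in PEO1 and 14 in PEO4, and 24 h against untreated gave 0 in PEA1, PEA2 and PEO1 and 1 in PEO14. Between lines it gave 4 for the PEA pair and 0 for the other two. With no rescaling, 24 h against 8 h gave 9 in PEO4, 15 in PEO14 and 1 in PEO23, 8 h against untreated 2 in PEA1, 3 in PEA2, 15 in PEO1 and 35 in PEO4, 24 h against untreated 5 in PEA1, 3 in PEA2 and 28 in PEO14, and between lines 16 for PEA2 and 18 for PEO23. A pseudocount of 0.1 gave 2 in PEA1 and no filter 3 in PEA2 for 8 h against untreated. With only the compared groups, 24 h against 8 h gave 0 in PEO4 and PEO23 and 1, in the other direction, in PEO14, 8 h against untreated 10 in PEA1, 3 in PEO1, 26 in PEO4 and 33 in PEO14, 24 h against untreated 5 in PEA2, 25 in PEO1 and 0 in PEO4, between lines 20 for PEA2, 0 for PEO4 and 1 for PEO23, and the PEO23 minus PEO14 difference 1. The replicate block gave 0 in PEO14 and 2 in PEO23 for 24 h against 8 h, 3 in PEA2 for 8 h against untreated, 2 in PEA2 and 7 in PEO14 for 24 h against untreated, and 10 for PEO23 against PEO14. Short-gene scaling gave 5 in PEO4 and 21 in PEO14 for 24 h against 8 h, 3 (PEA1), 2 (PEA2), 16 (PEO1), 34 (PEO4) and 14 (PEO14) for 8 h against untreated, 17, 23, 17, 20 and 41 in the same order for 24 h against untreated, and 16 for PEA2 and 21 for PEO23 between lines.

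Leaving out 1 library in turn gave, for 24 h against 8 h, 0 to 20 in PEO1, 1 to 39 in PEO4, 0 to 1 in PEO14, 2 to 30 in PEO23 and 33 to 51 in the mean. It gave 0 to 4 in PEA2, 17 to 55 in PEO1, 44 to 57 in PEO4 and 12 to 20 in PEO14 for 8 h against untreated, and 0 to 2, 6 to 15, 2 to 4 and 6 to 12 in the same lines for 24 h. Between lines it gave 7 to 9 for PEA2, 1 to 2 for PEO4 and 9 to 47 for PEO23. Single genes turned sign as follows. H3F3A and H3F3C rest on many libraries listed at 0. With all 54 libraries CHAF1B was -0.45 and MCM2 -0.17 in PEO4, BIRC5 -0.91 in PEO14, and in the mean H3F3C -0.082, UBN1 -0.085, CABIN1 -0.34, DNMT1 -0.025 and CCND1 -0.13. With no rescaling NPAT was 0.22, LSM10 0.18 and H2AFX 0.035, and with short-gene scaling NPAT 0.20, LSM10 0.17, H2AFX 0.023 and, in PEO4, CASP8AP2 0.056. The replicate block put SLBP at -0.0099. The mean of 4 lines put SLBP at -0.014, NPAT at 0.019, LSM11 at 0.14 and CCND1 at -0.044. With 1 library left out CASP8AP2 ran from -0.033 to 0.063, ERI1 from -0.039 to 0.33, H3F3A from -1.14 to 0.0031, LSM10 from -0.21 to 0.038, NPAT from -0.096 to 0.045 and SLBP from -0.020 to 0.073. Of 2527 values of 103 gene results under alternatives, 44 turned sign, 343 lost and 54 gained a call. Depth is unknown, so its limit on weak members cannot be given.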
